A study of Mus musculus with 19 samples.

Results

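Iron enters most cells bound to the plasma protein transferrin, is reduced and moved out of endosomes, and is then used, stored in ferritin or exported through ferroportin. In the kidney, filtered transferrin and iron are recovered by the tubules, and ferritin is made in tubular cells and in macrophages. Iron regulatory proteins bind stem-loops called iron responsive elements in several of these mRNAs when iron is scarce, which blocks translation where the element lies in the 5′ UTR and protects the mRNA from decay where it lies in the 3′ UTR. The 10 genes described here carry the main steps of that route, and were taken by gene symbol from the 55536 genes of the count table. They are Trf, Tfrc, Steap3 and Slc11a2 (uptake), Fth1 and Ftl1 (storage), Slc40a1, Heph and Cp (export), and Ireb2 (an iron regulatory protein). All 10 passed the filter on low counts, as did 16026 genes in all.

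RNA was sequenced from kidneys of mice in 19 libraries. Healthy kidneys gave 4 libraries, vehicle-treated obstructed kidneys gave 7 and obstructed kidneys treated with zalfermin, a long-acting analogue of the hormone FGF21, gave 8. Obstruction is named UUO in the study design, which commonly stands for unilateral ureteral obstruction, a model in which tying 1 ureter leads to tubular injury and fibrosis. In the sample labels, MASH stands as the condition of all 15 obstructed libraries, and the drug has a code name that is taken here as the zalfermin of the design. The healthy kidneys are untreated by the sample labels and vehicle-treated by the design. The sources used here do not give strain, age, sex, drug dose or time after surgery. Nothing in the labels states that each library is a separate mouse. The p-values therefore measure only how far these samples spread, and that spread may be technical.

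The libraries held between 12209122 and 14844103 counts. All 12 proximal tubule genes and all 10 distal and collecting tubule genes of the marker lists passed the filter on low counts, which by itself does not identify a tissue. Levels are given as CPM, that is counts for each 1e6 of a TMM-scaled library total. In healthy libraries these 2 lists summed to 22370 to 29766 and 10393 to 12052 CPM, against 145 to 223 CPM for 8 hepatocyte markers. Vehicle replicate 6 stood apart before any comparison was made. It had a count in 19788 genes, where the other 6 of its group had 21374 to 22216, and mitochondrial genes took 1.10% of its counts in place of 3.09% to 4.21%. Its red cell markers summed to 567 CPM, against 68.4 to 123.5 CPM in the other 6. Member results that this library moves by over 1.5 times, or whose call it changes, are given with and without it.

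Ferritin, ferroportin and transferrin receptor mRNAs carry iron responsive elements, and their sequences are shown because they are the feature these members share beyond their names. The search pattern was an unpaired C, 5 bases, the loop CAGTGN and 5 bases that pair with the first 5, read on the transcript strand of 1 GENCODE M21 coding transcript per gene. Each element is given as 30 bases, 5′ to 3′, with the loop in capitals.
Fth1, 5′ UTR, chr19:9982732-9982761, plus strand: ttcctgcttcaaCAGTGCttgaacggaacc
Ftl1, 5′ UTR, chr7:45459778-45459807, minus strand: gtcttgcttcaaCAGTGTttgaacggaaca
Slc40a1, 5′ UTR, chr1:45925464-45925493, minus strand: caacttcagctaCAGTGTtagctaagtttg
Tfrc, 3′ UTR, chr16:32631219-32631248, plus strand: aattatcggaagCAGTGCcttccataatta
Tfrc, 3′ UTR, chr16:32631598-32631627, plus strand: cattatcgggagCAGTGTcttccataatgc
Tfrc, 3′ UTR, chr16:32631663-32631692, plus strand: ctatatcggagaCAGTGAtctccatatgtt
Tfrc, 3′ UTR, chr16:32631710-32631739, plus strand: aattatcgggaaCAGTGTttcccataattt

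Coordinates are on GRCm38. The pattern occurred in 0.103% of 19402 5′ UTRs and in 0.539% of 20414 3′ UTRs of the annotation, whose median lengths were 182 and 867 bases. In the transcripts searched of Trf, Steap3, Slc11a2, Heph, Cp and Ireb2 the pattern was not found. That says nothing on other transcripts of those genes. The search was strict, so elements of any member that depart from the pattern would be missed. The 4 genes with a match moved in different directions in the obstructed kidneys, as described next: Fth1, Ftl1 and Tfrc were lower and Slc40a1 was higher.

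Obstruction changed the mRNA level of 8 of the 10 genes, 4 upward and 4 downward. Cp and Trf, which encode the plasma proteins ceruloplasmin and transferrin, rose 9.88-fold and 4.54-fold, and the exporter Slc40a1 and its partner oxidase Heph rose 2.0-fold and 1.88-fold. The transferrin receptor Tfrc, the endosomal iron transporter Slc11a2 and both ferritin chains fell. Changes were common in this comparison: 64.8% of all 16026 genes passed the same threshold, an adjusted p under 0.05 in edgeR's quasi-likelihood test, so 8 of 10 is near the background. By direction, 36.2% of all genes were higher and 28.6% lower, beside 4 of 10 each here. The median log2 fold change of the 10 genes was -0.05, beside 0.09 for all genes tested. In 4 of the 10 genes the healthy and vehicle libraries did not overlap, against 44.2% of all genes.

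**Figure D1:**
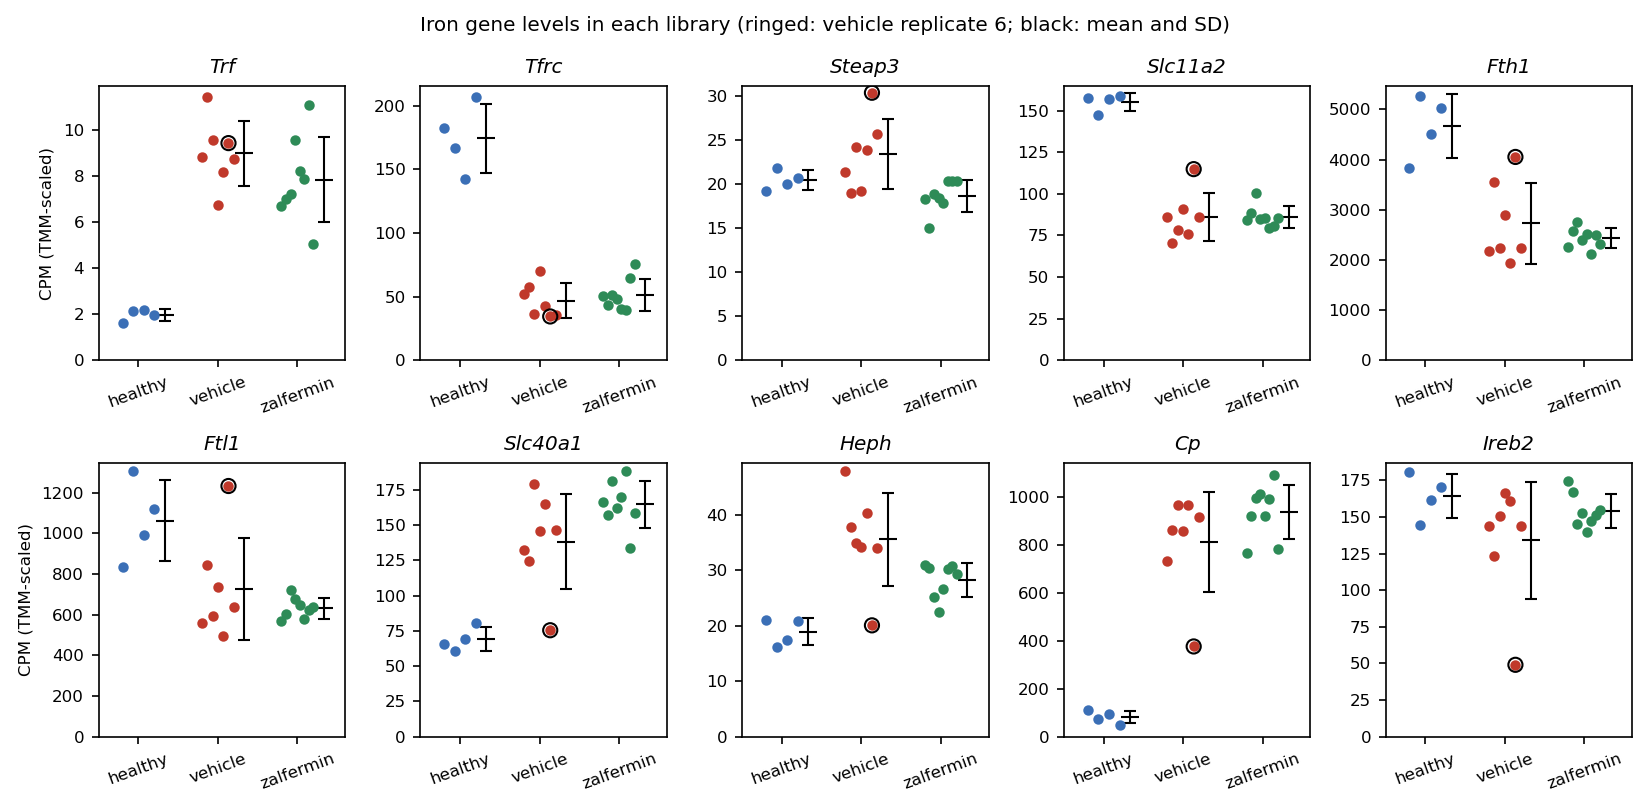
Level of each of the 10 iron genes in every library, in CPM on a linear axis that starts at 0, by group (healthy n = 4, vehicle n = 7, zalfermin n = 8). Points are libraries, vehicle replicate 6 is ringed, and black bars are group means with SD. Cp, Trf, Tfrc and Slc11a2 separate healthy from vehicle libraries without overlap, and vehicle replicate 6 is the lowest vehicle library for Cp (377 CPM) and Ireb2 (49.1 CPM).

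Trf (ENSMUSG00000032554; chr9:103204001-103230444, minus strand) encodes transferrin, which carries iron in plasma and is made mainly by the liver. Healthy libraries held 1.60, 2.13, 2.19 and 1.96 CPM, and vehicle libraries ran from 6.76 through a median of 8.83 to 11.4 CPM. Every vehicle library was above every healthy one, at a level that remained the lowest per length of the 10 genes. The log2 fold change was 2.18 ± 0.209 (SE), with an adjusted p of 5.13e-09. Hepatocyte markers moved in both directions. Of the 8 listed, 6 passed the filter, of which 5 fell and 1 rose. The list summed to 145 to 223 CPM in healthy, 48.8 to 103 CPM in vehicle and 57.9 to 121.5 CPM in zalfermin libraries. Albumin, Alb, averaged 16.9 ± 17.3 CPM (SD, n = 4) in healthy and 1.01 ± 0.714 CPM (n = 7) in vehicle kidneys. Its healthy libraries ran from 7.55 to 42.8 CPM. The marker that rose, Fgb, went from 2.14 ± 1.02 CPM to 31.1 ± 16.2 CPM (3.84 on the log2 scale). Trf is also expressed by myelinating glia. Of the 4 listed glial markers, 3 passed the filter and 1, Mbp, rose, and the list summed to 17.6 to 23.3 CPM in healthy, 33.6 to 39.6 CPM in vehicle and 35.2 to 44.0 CPM in zalfermin libraries. The part of these cells in the result was not tested.

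Tfrc (ENSMUSG00000022797; chr16:32608920-32632794, plus strand) encodes the receptor that takes up iron-loaded transferrin. Its healthy libraries held 182, 167, 142 and 207 CPM. Vehicle libraries ran from 34.3 through a median of 42.5 to 70.0 CPM. No vehicle library reached the lowest healthy one, and the fall was -1.90 ± 0.185 on the log2 scale (adjusted p = 6.97e-09).

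Steap3 (ENSMUSG00000026389; chr1:120190757-120272705, minus strand) encodes the endosomal reductase that converts transferrin-derived iron to its ferrous form. Its libraries held 19.2, 21.8, 19.98 and 20.6 CPM in healthy kidneys and ran from 19.01 through a median of 23.9 to 30.3 CPM with vehicle. The groups overlapped, and the log2 difference of 0.19 (95% interval -0.05 to 0.44) did not pass the test (adjusted p = 0.153). Without vehicle replicate 6 the Steap3 difference was 0.070 (adjusted p = 0.560).

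Slc11a2 (ENSMUSG00000023030; chr15:100387898-100425072, minus strand) encodes DMT1, the transporter that carries ferrous iron across endosomal and apical membranes. Healthy libraries were closely spaced, at 157, 147, 157 and 159 CPM. Vehicle libraries ran from 70.5 through a median of 85.8 to 115 CPM, all below the healthy range. The log2 fold change was -0.85 ± 0.0989 (adjusted p = 1.09e-07). With library totals not scaled by TMM factors it was -0.43 and still passed in edgeR (adjusted p = 0.000545).

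Fth1 (ENSMUSG00000024661; chr19:9980598-9985098, plus strand) encodes the ferritin heavy chain, which oxidises iron for storage. It held 3834, 5273, 4503 and 5033 CPM in healthy libraries and ran from 1934 through a median of 2233 to 4053 CPM with vehicle. Vehicle replicate 6 was the highest vehicle library and the only one inside the healthy range. Fth1 fell by 0.77 on the log2 scale (SE 0.163, adjusted p = 0.000246). With library totals not scaled by TMM factors its log2 fold change was -0.35 and still passed in edgeR (adjusted p = 0.0442).

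Ftl1 (ENSMUSG00000050708; chr7:45457944-45459884, minus strand) encodes the ferritin light chain, which helps form the iron core. Its healthy libraries held 833, 1306, 991 and 1119 CPM, and vehicle libraries ran from 494 through a median of 639 to 1232 CPM. The groups overlapped through vehicle replicates 2 and 6, the 2 highest. The log2 fold change was -0.55 ± 0.177 (adjusted p = 0.00971), but Ftl1 missed the threshold once healthy replicate 2 was left out (-0.43, adjusted p = 0.0574). With library totals not scaled by TMM factors Ftl1 did not pass either (-0.12, adjusted p = 0.535). Rows named as ferritin pseudogenes held at most 69 counts each over all libraries, beside 771790 for Fth1 and 196073 for Ftl1, so reads placed on such copies were few.

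Slc40a1 (ENSMUSG00000025993; chr1:45908068-45926523, minus strand) encodes ferroportin, the iron exporter. Its healthy libraries held 65.5, 61.0, 69.0 and 80.9 CPM, and vehicle libraries ran from 75.5 through a median of 146 to 179 CPM. The groups overlapped only through vehicle replicate 6, since the other 6 held at least 125 CPM. Slc40a1 rose by 1.003 ± 0.159 on the log2 scale (adjusted p = 8.76e-06).

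Heph (ENSMUSG00000031209; chrX:96455359-96574485, plus strand) encodes hephaestin, a membrane copper oxidase that works beside ferroportin. It held 21.1, 16.2, 17.5 and 20.8 CPM in healthy libraries and ran from 20.1 through a median of 34.9 to 47.9 CPM with vehicle. Vehicle replicate 6 was again the only vehicle library inside the healthy range, the next lowest being 34.0 CPM. The log2 fold change was 0.91 ± 0.161 (adjusted p = 3.20e-05).

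Cp (ENSMUSG00000003617; chr3:19957054-20009145, plus strand) encodes ceruloplasmin, the soluble or membrane-anchored copper oxidase that loads exported iron onto transferrin. It held 111, 73.4, 93.4 and 50.7 CPM in healthy libraries and ran from 377 through a median of 864 to 970.0 CPM with vehicle. All 7 vehicle libraries were far above the healthy range, with replicate 6 the lowest. The log2 fold change of 3.30 ± 0.238 (adjusted p = 5.43e-11) was the largest of the 10 genes. The exons of Hps3 overlap those of Cp on the opposite strand, and the sources used here do not give the strand setting of the counting. Hps3 held 10893 counts over all libraries against 196717 for Cp, and went down, from 55.5 ± 4.51 CPM (SD, n = 4) to 37.6 ± 5.27 CPM (n = 7).

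Ireb2 (ENSMUSG00000032293; chr9:54863789-54912530, plus strand) encodes the iron regulatory protein that binds iron responsive elements and is broken down when iron is plentiful. It held 181, 145, 162 and 171 CPM in healthy libraries and ran from 49.1 through a median of 144 to 166 CPM with vehicle. Vehicle replicate 6 stood far below every other library, and the difference of -0.29 (95% interval -0.69 to 0.10) did not pass the test (adjusted p = 0.179). Without that library the difference was smaller, -0.20, and passed it (adjusted p = 0.0301).

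Cell-type markers moved with these genes. The summed level of 12 macrophage markers, of which 10 passed the filter and all 10 rose, was 159 to 195 CPM in healthy, 1124 to 1502 CPM in vehicle and 940.5 to 1366 CPM in zalfermin libraries. All 12 proximal tubule markers fell, and their sum went from 22370 to 29766 CPM in healthy kidneys to 5306 to 10814 CPM with vehicle, where replicate 6 was the highest, and 5246 to 9683 CPM with zalfermin. Of 10 distal and collecting tubule markers 8 fell and 1 rose. All 7 fibroblast and all 5 tested neutrophil markers rose, and of 7 endothelial markers 3 rose and 1 fell. Beside these marker counts, 36.2% of all genes tested were higher and 28.6% lower. With zalfermin against vehicle 2 fibroblast markers were lower, and no marker of the other lists passed the test in edgeR. In these bulk samples fewer cells of a type and less RNA per cell cannot be told apart, and the part of these markers in the member results was not tested. Scaling mattered to the split of directions. With library totals not scaled by TMM factors the median of all genes moved from 0.09 to 0.51 on the log2 scale. In that setting 5 members were called higher and 3 lower in place of 4 and 4, beside 9373 and 2344 of all 16026 genes. Steap3 was then higher (0.62, adjusted p = 0.000128), and Ireb2, not called, stood at 0.13.

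**Figure D2:**
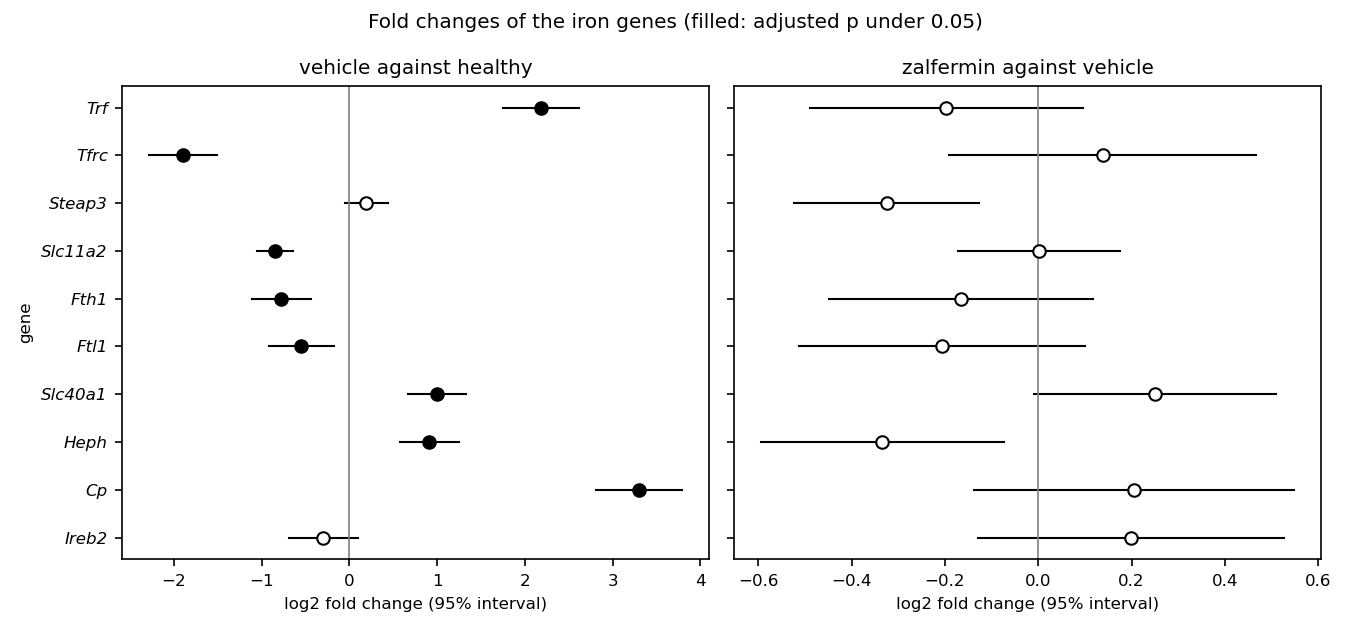
Log2 fold change of each iron gene with its 95% interval in edgeR's quasi-likelihood fit, for vehicle against healthy kidneys (left) and zalfermin against vehicle (right, on a narrower scale). Filled points passed an adjusted p under 0.05. In the right panel no point is filled and the values run from -0.33 to 0.25.

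Zalfermin was compared with vehicle in obstructed kidneys to ask what the drug changed. None of the 10 iron genes passed the threshold in edgeR, where 1.81% of all genes did (0.867% higher, 0.942% lower). In all 10 the vehicle and zalfermin libraries overlapped, as they did in all but 0.605% of genes tested. Steap3 and Heph were the 2 with an unadjusted p under 0.05, both lower with the drug, beside 2479 of all 16026 genes in either direction. DESeq2 called 1 of the 10 lower, beside 342 of all genes. Limma voom with sample weights called 2 of the 10 lower, beside 646 of all genes. The median log2 difference was -0.08, beside 0.01 for all genes. This comparison and the first share the vehicle libraries.

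Steap3 with zalfermin ran from 15.02 through a median of 18.6 to 20.3 CPM, and all 8 libraries were below the vehicle median of 23.9 CPM. The ranges still overlapped, and the log2 difference was -0.33 (95% interval -0.52 to -0.13, adjusted p = 0.0849). Without vehicle replicate 4 the adjusted p of Steap3 was 0.0490. Heph ran from 22.6 through a median of 29.8 to 30.9 CPM, again with all 8 libraries below the vehicle median of 34.9 CPM. Its difference was -0.33 (95% interval -0.59 to -0.07, adjusted p = 0.194). Without vehicle replicate 6, whose Heph level was the lowest of all obstructed kidneys, it was -0.45 and passed the test (adjusted p = 0.00987). Heph with zalfermin remained above healthy kidneys, by 0.58 on the log2 scale (adjusted p = 0.00263).

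Slc40a1 ran from 134 through a median of 164 to 188 CPM with zalfermin, overlapping the vehicle range. Its difference from vehicle was 0.25 (95% interval -0.01 to 0.51, adjusted p = 0.346). Cp ran from 768 through 959 to 1094 CPM, with a difference of 0.21 (interval -0.14 to 0.55). The means of these 2 export genes were above those of vehicle kidneys, where that of Heph was below, and their intervals do not separate them from no difference. Without vehicle replicate 6 the differences were 0.13 for Slc40a1 and 0.070 for Cp.

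Fth1 with zalfermin ran from 2120 through a median of 2445 to 2753 CPM, and Ftl1 from 568.4 through 629.9 to 719 CPM. Their differences from vehicle were -0.17 (interval -0.45 to 0.12) and -0.21 (interval -0.51 to 0.10). The vehicle libraries spread more widely than the zalfermin ones for both chains, with SDs of 808 and 251 CPM against 201 and 50.4 CPM. The differences from vehicle rest largely on vehicle replicate 6, and the wider spreads only in part. Without that library the vehicle means were 2504 ± 611 CPM for Fth1 and 644 ± 127 CPM for Ftl1 (SD, n = 6). These SDs were still above the 201 and 50.4 CPM of the zalfermin libraries. The log2 differences were then -0.054 and -0.040 (adjusted p = 0.871 and 0.904). Under voom, which gives libraries weights, the differences had the opposite sign, 0.0792 and 0.0686.

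Tfrc with zalfermin ran from 39.2 through a median of 49.4 to 75.3 CPM and differed from vehicle by 0.14 (interval -0.19 to 0.47). Trf ran from 5.06 through 7.55 to 11.1 CPM and differed by -0.20 (interval -0.49 to 0.10). Ireb2 ran from 139.6 through 152 to 174 CPM and differed by 0.20 (interval -0.13 to 0.53). All 3 genes had overlapping ranges in the obstructed groups. Without vehicle replicate 6 the differences were 0.064 for Tfrc, -0.20 for Trf and 0.043 for Ireb2. Slc11a2 ran from 79.6 through 85.1 to 101 CPM and its difference of 0.00 had the narrowest interval of the 10, -0.17 to 0.17. Without vehicle replicate 6 the Slc11a2 difference was 0.072.

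Against healthy kidneys, the zalfermin libraries showed calls for 8 of the 10 genes, beside 64.3% of all genes (37.3% higher, 27.0% lower). Cp (3.51), Trf (1.99), Slc40a1 (1.25) and Heph (0.58) were higher, and Tfrc (-1.76), Fth1 (-0.94), Slc11a2 (-0.85) and Ftl1 (-0.75) were lower, as log2 fold changes. Steap3 (-0.13, adjusted p = 0.328) and Ireb2 (-0.10, adjusted p = 0.667) did not pass. In 8 genes the zalfermin and healthy libraries did not overlap, against 51.2% of all genes. This comparison shares its healthy libraries with the first and its drug-treated ones with the second. The median of the 10 log2 values was -0.11, beside 0.13 for all genes.

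Levels of different genes were compared as CPM per kilobase of summed exons. In healthy kidneys Fth1 came first at 1344 and Ftl1 second at 793. Next were Tfrc at 28.2, Slc11a2 at 24.4 and Ireb2 at 17.4, then Cp at 8.60, Slc40a1 at 7.68, Steap3 at 3.57, Heph at 2.47 and Trf at 0.594 CPM per kilobase. The ranges over libraries overlapped only between Tfrc and Slc11a2 and between Cp and Slc40a1, so these neighbours in the order are not separated beyond their spread.

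In vehicle kidneys the order was Fth1 at 786, Ftl1 at 543, Cp at 85.0, Slc40a1 at 15.4, Ireb2 at 14.1, Slc11a2 at 13.5, Tfrc at 7.57, Heph at 4.65, Steap3 at 4.09 and Trf at 2.71 CPM per kilobase. Cp moved ahead of Ireb2, Slc11a2 and Tfrc, and Slc40a1 did so too. The libraries overlapped between all neighbours except Ftl1 and Cp, and Cp and Slc40a1. Zalfermin kidneys had the same order, with Fth1 at 700.3, Ftl1 at 471, Cp at 98.0, Slc40a1 at 18.3 and Trf at 2.36 CPM per kilobase. With the length of 1 coding transcript in place of all exons, Tfrc and Slc11a2, Cp and Slc40a1, and Steap3 and Heph changed places in healthy kidneys, as did Ireb2 and Slc11a2 in the obstructed ones.

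**Figure D3:**
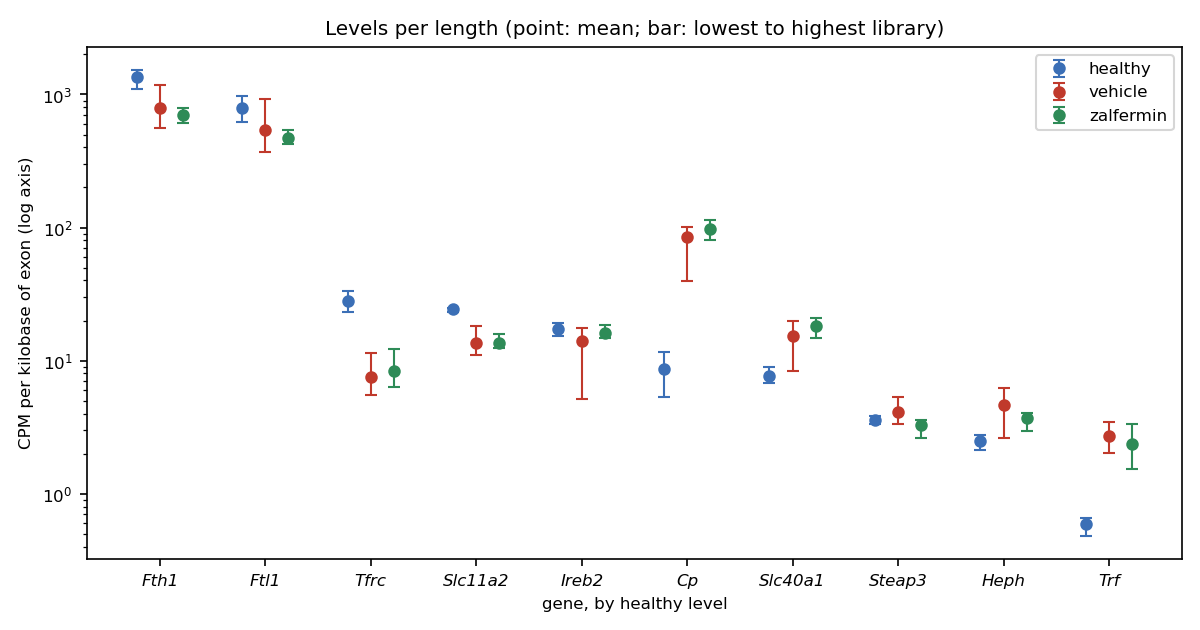
Mean level of the 10 iron genes per kilobase of summed exons in each group, as points on a log axis, with bars from the lowest to the highest library. Fth1 and Ftl1 lead in all 3 groups, and Cp goes from 8.60 in healthy to 85.0 in vehicle and 98.0 CPM per kilobase in zalfermin kidneys.

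The 2 ferritin chains were also compared with each other, since ferritin shells are mixtures of heavy and light chains. The ratio of Fth1 to Ftl1 counts was 4.42 ± 0.259 (SD, n = 4) in healthy, 3.79 ± 0.311 (n = 7) in vehicle and 3.86 ± 0.248 (n = 8) in zalfermin libraries. The lowest ratio, 3.29, was that of vehicle replicate 6. As a share of all counts the 2 chains made up 0.456% ± 0.0527 in healthy, 0.369% ± 0.108 in vehicle and 0.321% ± 0.0237 in zalfermin libraries. Vehicle replicate 6 had 0.564%, the highest vehicle share. These ratios and shares are descriptions, and no test was made on them. The counts in the ratio were not divided by gene length, so it compares groups and not the levels of the 2 genes. Per kilobase of summed exons the healthy means were 1344 CPM for Fth1 and 793 CPM for Ftl1. Read counts of mRNA do not give the mix of chains in the protein.

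**Figure D4:**
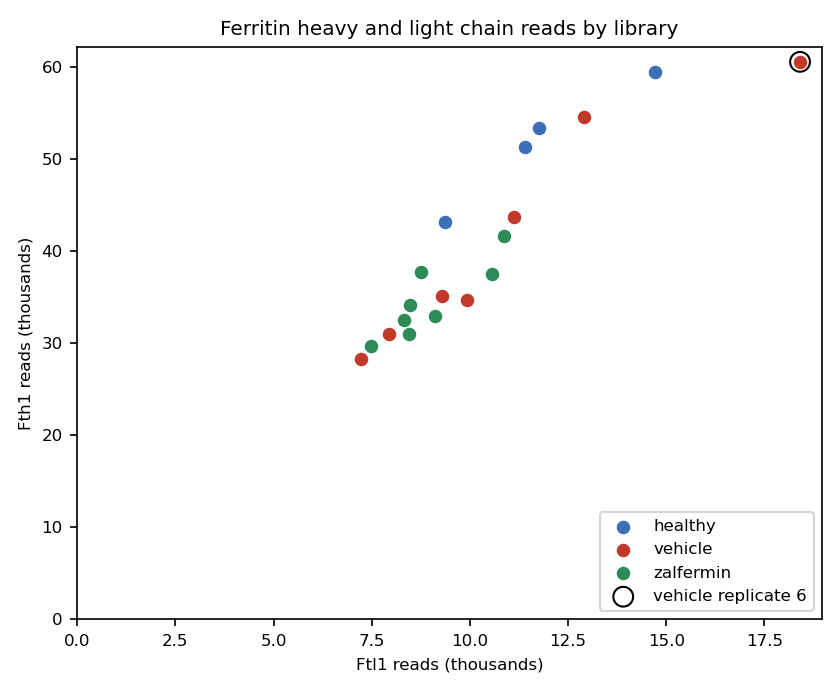
Reads counted for Fth1 (vertical axis) against Ftl1 (horizontal axis) in each of the 19 libraries, not scaled for depth, coloured by group, with linear axes from 0. The healthy libraries have 43098 to 59390 reads of Fth1, and vehicle replicate 6 (ringed) has the most reads of both chains, 60547 of Fth1 and 18407 of Ftl1.

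For the 4 genes that moved by at least 1 on the log2 scale with obstruction, the genes with the most similar course over the 19 libraries were found by the mean absolute difference of log2 CPM after subtracting each gene's healthy mean. For Trf these were Crlf2, a cytokine receptor chain (0.14), and Dok1, a signalling adaptor (0.16). For Tfrc they were Aldh6a1, a mitochondrial enzyme of valine breakdown (0.20), and Mfsd4b5 (0.21). For Slc40a1 they were Aida and the RNA-binding protein gene Ptbp3 (both 0.14), and for Cp they were Samd5 (0.15) and the mitochondrial carrier Slc25a24 (0.16). The level of Aldh6a1 was 1429 ± 96.4 CPM in healthy, 350.0 ± 77.9 CPM in vehicle and 430 ± 89.0 CPM in zalfermin kidneys.

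**Figure D5:**
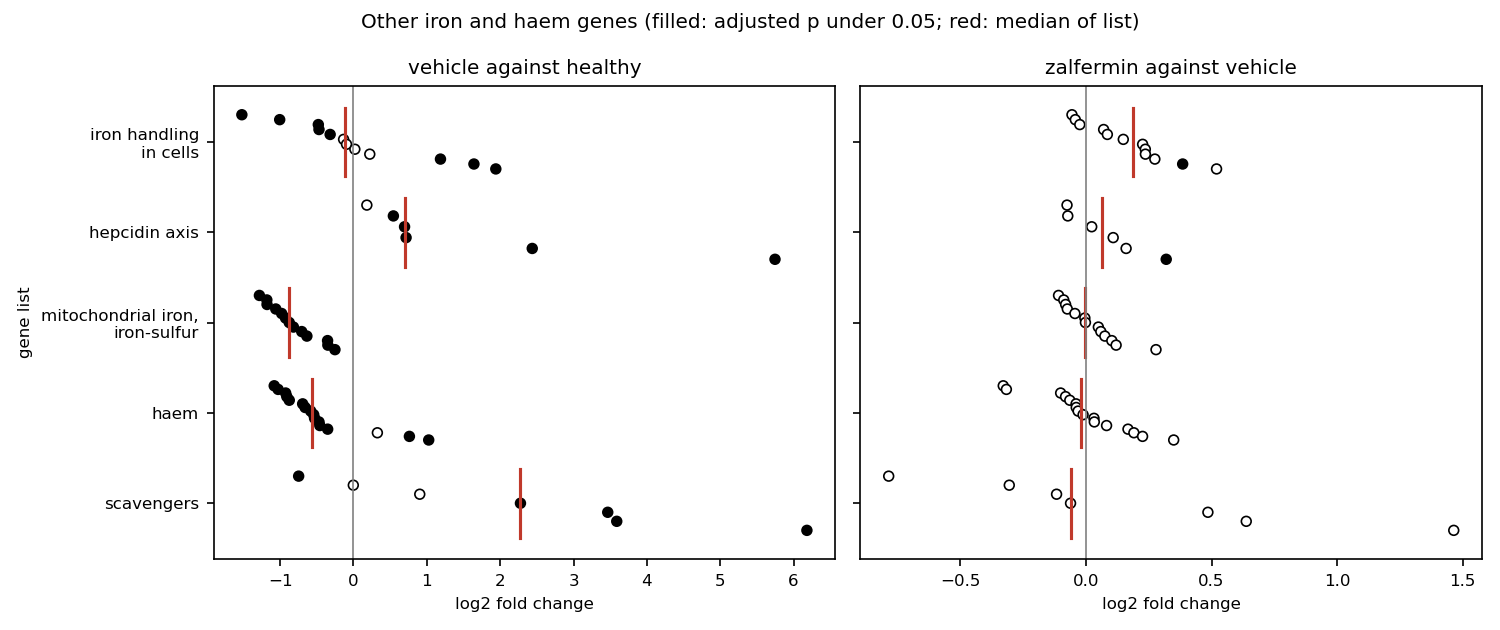
Log2 fold change of each tested gene of the 5 accompanying iron and haem lists in vehicle against healthy and in zalfermin against vehicle kidneys, with filled points for an adjusted p under 0.05 and a red line at the median of each list. All 13 tested mitochondrial genes lie below 0 in the first comparison, and 2 genes, Steap2 and Bmp6, are filled in the second.

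Other genes of iron handling in the cell moved in both directions with obstruction. Of 12 listed and tested, 3 rose and 5 fell (median -0.11 on the log2 scale), beside 36.2% of all genes tested higher and 28.6% lower. Without vehicle replicate 6 the counts were 4 and 7. With library totals not scaled by TMM factors the list gave 7 higher and 2 lower, beside 9373 higher and 2344 lower of all 16026 genes. The reductase genes Steap4 (1.94), Steap1 (1.64) and Cybrd1 (1.19) rose on the log2 scale. The metal importer Slc39a8 fell from 126 ± 19.5 CPM to 44.0 ± 3.48 CPM (-1.52). Aco1, whose product is both an aconitase and an iron regulatory protein, fell from 529 ± 45.99 CPM to 263 ± 33.3 CPM (-1.01). Mcoln1 (-0.48), the ferritin degradation receptor Ncoa4 (-0.47) and the iron sensor Fbxl5 (-0.32) also fell. With unscaled totals Ncoa4 (-0.044, adjusted p = 0.729) and Mcoln1 (-0.050, adjusted p = 0.598) did not pass, and Fbxl5 stood at 0.11. With zalfermin against vehicle only Steap2, a metalloreductase, passed the test in this list. It averaged 161 ± 15.8, 187 ± 30.5 and 245 ± 22.02 CPM in healthy, vehicle and zalfermin kidneys, with a log2 difference from vehicle of 0.39 (adjusted p = 0.0359). That call was lost when only the 2 groups were fitted (adjusted p = 0.0544), without TMM factors (0.0572) and when any of 10 libraries was left out (up to 0.0831). Ncoa4 stood at 0.27 (adjusted p = 0.154).

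The hormone hepcidin, made mainly by the liver, causes ferroportin to be internalised, and its axis was listed with 10 symbols. Hamp, which encodes it, held 8 counts over all libraries and Hamp2 none. Of the 6 tested genes 5 rose with obstruction, none fell, and the median was 0.71. Over all genes tested 36.2% were higher and 28.6% lower. Bmp6, the ligand that induces hepcidin, went from 79.1 ± 6.22 CPM to 115 ± 7.48 CPM (0.54), and the others were Tfr2 (2.44), Hfe (0.72), Id1 (0.70) and the protease gene Tmprss6. Tmprss6 held 3 counts in the 4 healthy and 434 in the 7 vehicle libraries. Per total count, not scaled by TMM factors, the ratio was 81.9 (95% interval 27.9 to 399, counting error only). On the TMM-scaled log2 scale of the other genes it rose by 5.75 ± 0.502 (SE). Id1 did not pass under voom (adjusted p = 0.0527). The co-receptor gene Neo1 did not pass (0.18). With zalfermin Bmp6 averaged 144 ± 12.3 CPM, 0.32 above vehicle on the log2 scale (SE 0.0667, adjusted p = 0.0154). The Bmp6 libraries ran from 105 to 124 CPM with vehicle and from 125 to 161 CPM with zalfermin, without overlap, and the call held in all alternatives run.

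Mitochondrial iron and iron-sulfur cluster genes were lower in obstructed kidneys. Of 14 listed, 13 were tested and all 13 fell with obstruction (median -0.87 on the log2 scale), while Ftmt had no count. Over all genes tested 28.6% were lower. With unscaled totals 8 of the 13 were called lower, beside 2344 of all 16026 genes. Nfs1, the cysteine desulfurase that supplies sulfur for clusters, fell from 168 ± 28.2 CPM to 68.9 ± 14.7 CPM (-1.28), and the assembly factor Isca1 fell from 77.6 ± 5.02 CPM to 44.0 ± 3.19 CPM (-0.82). These falls accompanied those of the proximal tubule markers given above. The share of counts from mitochondrial genes moved with them: healthy libraries had 8.77% to 10.2%, those given vehicle 1.10% to 4.21%, and those given zalfermin 2.95% to 4.25%. The part of either in the result was not tested. None of the 13 passed with zalfermin against vehicle in edgeR, nor had an unadjusted p under 0.05, and the assembly factor Isca2 stood at 0.12. Among all 16026 genes tested, 2479 had such an unadjusted p.

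Of 16 haem genes 13 fell and 2 rose with obstruction, with a median of -0.56, beside 28.6% of all genes tested lower and 36.2% higher. With unscaled totals 6 haem genes were called lower, beside 2344 of all 16026 genes. Fech, the enzyme that inserts iron into haem, fell from 189 ± 18.9 CPM to 101 ± 6.06 CPM (-0.91), and the haem and folate carrier Slc46a1 fell by 1.08 on the log2 scale. The haem exporter Flvcr1 (1.03) and Hmox1, which breaks haem down and releases its iron (0.76), rose. Red cell markers summed to 284 to 487 CPM in healthy, 68.4 to 567 CPM in vehicle and 66.7 to 219 CPM in zalfermin libraries, with 5 of 7 tested lower and 1 higher after obstruction, and their part in the haem genes was not tested. The Hmox1 call was lost without vehicle replicate 6 (adjusted p = 0.0509), healthy replicate 1 (0.0700) or healthy replicate 3 (0.0649). With zalfermin none passed in edgeR. Beside 2479 of all 16026 genes tested, 3 haem genes had an unadjusted p under 0.05. These were Flvcr2 at 0.35 (adjusted p = 0.198), Fech at 0.17 (0.227) and, with a lower level, Blvrb at -0.33 (0.227).

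Of 7 scavengers of haem and iron tested, 4 rose and 1 fell with obstruction, with a median of 2.28. Over all genes tested 36.2% were higher and 28.6% lower. Lcn2, which encodes the siderophore-binding protein lipocalin and marks tubular injury, went from 5.22 ± 2.27 CPM to 376 ± 87.8 CPM (6.18). The haemopexin receptor Lrp1 (2.28), the haemoglobin-haptoglobin receptor Cd163 (3.59) and haptoglobin, Hp (3.47), also rose, and the lipocalin receptor Slc22a17 fell by 0.75 on the log2 scale, a call that was lost with unscaled totals (-0.33, adjusted p = 0.0598). Cd163 is also in the macrophage list. Its vehicle libraries spread widely, from 1.05 to 11.96 CPM, with an SD (3.95 CPM) above the mean (3.05 CPM). Healthy libraries held 0.0982 to 0.422 CPM of Cd163, so the size of its rise is uncertain. The Hp call was not made by voom (adjusted p = 0.273). None of the 7 passed with zalfermin against vehicle in edgeR. Beside 2479 of all 16026 genes tested, 3 scavengers had an unadjusted p under 0.05. They were Lrp1 (-0.31, adjusted p = 0.179), Ltf (-0.79, adjusted p = 0.305) and Hp (1.46, adjusted p = 0.305). Hp spread widely, from 3.78 to 28.7 CPM with vehicle and from 1.75 to 145 CPM with zalfermin. Under voom Lrp1 passed (-0.32, adjusted p = 0.0430), and without vehicle replicate 7 edgeR called 1 of the 7 higher.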

How the data were processed

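Total RNA of mouse kidneys was measured in 19 libraries made with a strand-specific kit, per the labels' protocols. Per the submitters' processing notes, STAR 2.7.0f and GRCm38 were used, and neither the counting program nor its strand setting is given in the sources used here. The deposited values are raw read counts per gene, with no normalization by the authors.

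Groups came from the sample labels. The 10 genes, the accompanying lists and the markers were chosen with earlier results of these data known. Genes were filtered with filterByExpr (minimum count 10) and fitted together over all 19 libraries with TMM scaling in edgeR 4.0.16 (quasi-likelihood test, R 4.3.3), with Benjamini-Hochberg adjustment over 16026 genes and a threshold of 0.05. CPM uses TMM-scaled totals. The main edgeR fit was tested on simulated data in which few genes changed, and only in zalfermin libraries. That test does not cover a comparison in which most genes change, such as vehicle against healthy kidneys. The alternative fits were not tested on simulated data. Alternatives were RLE and upper-quartile scaling, unscaled totals, other filters, DESeq2 1.42.0, limma 3.58.1 voom, fits of 2 groups, adding ferritin pseudogene reads, and leaving out each library.

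GENCODE M21 (GRCm38) held 55450 of the 55536 identifiers and gave coordinates, exon lengths and sequences. Where several rows shared a symbol, 118 further rows had their identifier added. Intervals of folds are 95%. A count of 3, the floor used for undetected genes, is 0.246 CPM in the smallest library. Of each list, the 2 genes of smallest p in each comparison with vehicle, and every gene called with zalfermin, were to be named; 1 of them is not reported here. Other genes named from the lists were added after their values were seen.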

Additional observations from a re-analysis of the deposited data

Results flagged for a closer look

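In 3 of 30 sets (10 genes in 3 groups) 1 library lay far from the rest of its group by Dixon's criterion. Chance alone flags about 1 in 20 such sets. The level of Cp in vehicle replicate 6 was 377 CPM, while the other 6 vehicle libraries held 734 to 970.0 CPM. Ireb2 in the same library was at 49.1 CPM, against 124 to 166 CPM in the others. The third was Slc11a2 in zalfermin replicate 3, the highest of its group at 100.6 CPM, with the other 7 libraries at 79.6 to 88.6 CPM.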

How the results depend on the processing

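No paired analysis was possible because the labels carry no replicate numbers that groups share. The calls of the 10 genes in vehicle against healthy kidneys were 4 higher in every fit except that with unscaled totals, and 3 to 5 lower when 1 library was left out, through the changes in Ftl1 and Ireb2 given above. With unscaled totals, an alternative chosen after seeing the data, all genes gave 9373 higher and 2344 lower calls in vehicle against healthy kidneys, and 9451 and 2351 in zalfermin against healthy kidneys, beside 5799 and 4588, and 5976 and 4322. The share of higher calls was then 80.0% in place of 55.8% in vehicle against healthy kidneys. In the same setting Ireb2 (0.13) and Fbxl5 (0.11) changed sign in vehicle against healthy kidneys, as did Steap3 (0.26) and Ireb2 (0.29) in zalfermin against healthy kidneys, where 4 members were higher and 3 lower and Ftl1 no longer passed (adjusted p = 0.0554). For zalfermin against vehicle, DESeq2 called 1 of the 10 genes lower, voom 2, and leaving out 1 library 0 to 1. All genes gave 139 higher and 151 lower calls there, against 260 and 342 with DESeq2, 502 and 646 with voom, 110 and 166 with RLE, 105 and 191 with upper-quartile scaling, 82 and 175 with unscaled totals, and 71 to 242 and 73 to 275 with 1 library left out. The difference of Slc11a2 changed sign with RLE (-0.0116), upper-quartile scaling (-0.0325), unscaled totals (-0.0333), DESeq2 (-0.0115), the 1 CPM filter (-0.00223) and 2 groups (-0.00945), and ran from -0.0419 to 0.0718 with 1 library left out; Fth1 (0.0792) and Ftl1 (0.0686) changed sign with voom. The cause was not tested. Depth limits genes with few reads in healthy kidneys, such as Trf and Tmprss6.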
